A study of Homo sapiens with 6 samples.

Results

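The 10 genes described here encode the pyruvate dehydrogenase complex and the enzymes that switch it off and on: the kinases PDK1, PDK2, PDK3 and PDK4, the phosphatases PDP1 and PDP2, and the subunits PDHA1, PDHB, DLAT and PDHX. They were taken by gene symbol from a table of 58243 genes, and the list was selected on change values of this same comparison, si-SNHG17-1 against si-NC, from an earlier analysis. The changes given below are therefore a description of these libraries and support nothing further. RNA was sequenced from cells labelled Hep3B, a line derived from a human hepatocellular carcinoma, in 2 groups of 3 libraries. One group received si-SNHG17-1, an siRNA aimed at the long noncoding RNA SNHG17, and the other the control si-NC. Neither the time after transfection nor any separate culture for each replicate is named in the labels, so the p-values reflect spread among these libraries alone, and that spread may be technical. The labels name 1 siRNA against SNHG17, so effects of that sequence and of SNHG17 loss cannot be told apart.

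The pyruvate dehydrogenase complex sits in the mitochondrial matrix and turns pyruvate, the end product of glycolysis, into acetyl-CoA for the tricarboxylic acid (TCA) cycle. Kinases phosphorylate its E1 alpha subunit and stop it, so that pyruvate is left for lactate production or carboxylation, and phosphatases remove the phosphate and restart it. In liver, PDK4 is best known as the isoform induced in fasting, when fatty acids replace glucose as fuel. Transcript levels, which are what was measured here, say nothing of phosphorylation or of enzyme activity.

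Total counts ranged from 30207055 to 42271168 per library, and levels are given as CPM (reads of a gene per 1e6 reads, with library sizes scaled by TMM). The targeted SNHG17 stood at 22.4, 22.8 and 23.9 CPM with si-NC and at 8.03, 8.02 and 8.27 CPM with si-SNHG17-1 (log2 fold change −1.51, edgeR adjusted p = 0.00101). Of 9 hepatocyte and liver cancer markers, only FGB exceeded 1 CPM in any library, and TTR and GPC3 were at 0 counts in all of them, so the cells are called by their label only; the sum of the 9 was 2.06 to 2.98 CPM with si-NC and 3.18 to 4.42 CPM with si-SNHG17-1. Of 5 fibroblast markers, 4 exceeded 1 CPM and COL1A2 was at 0. Their sum per library was 172 to 189 CPM in si-NC and 240 to 255 CPM in si-SNHG17-1, scaled by total counts. The sum of 3 endothelial markers was 2.23 to 3.71 CPM and 5.96 to 7.73 CPM, and none of 4 blood markers exceeded 1 CPM. The hepatocyte, fibroblast and endothelial sums differed between the groups without overlap, and their part in the results was not tested. In bulk RNA, fewer cells with a transcript and less of it per cell cannot be told apart.

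All 10 genes passed the filter on low counts. After si-SNHG17-1, PDK4 rose and PDHA1 fell, and the other 8 were not called at an adjusted p under 0.05 (edgeR quasi-likelihood test, Benjamini-Hochberg adjustment over 18679 genes). Over all genes tested, 10.5% were called, 5.25% higher (980 genes) and 5.21% lower (974 genes); scaled by total counts alone, the split was 1168 to 781. The groups did not overlap for 5 of the 10 genes (PDK1, PDK4, PDP1, PDHA1 and PDHB), against 33.7% of all genes tested. Since the genes were listed with this comparison known, nothing is read from these shares. The median log2 fold change of the 10 was −0.12, beside −0.00165 over all genes, with 7 values below 0 and 3 above.

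**Figure D1:**
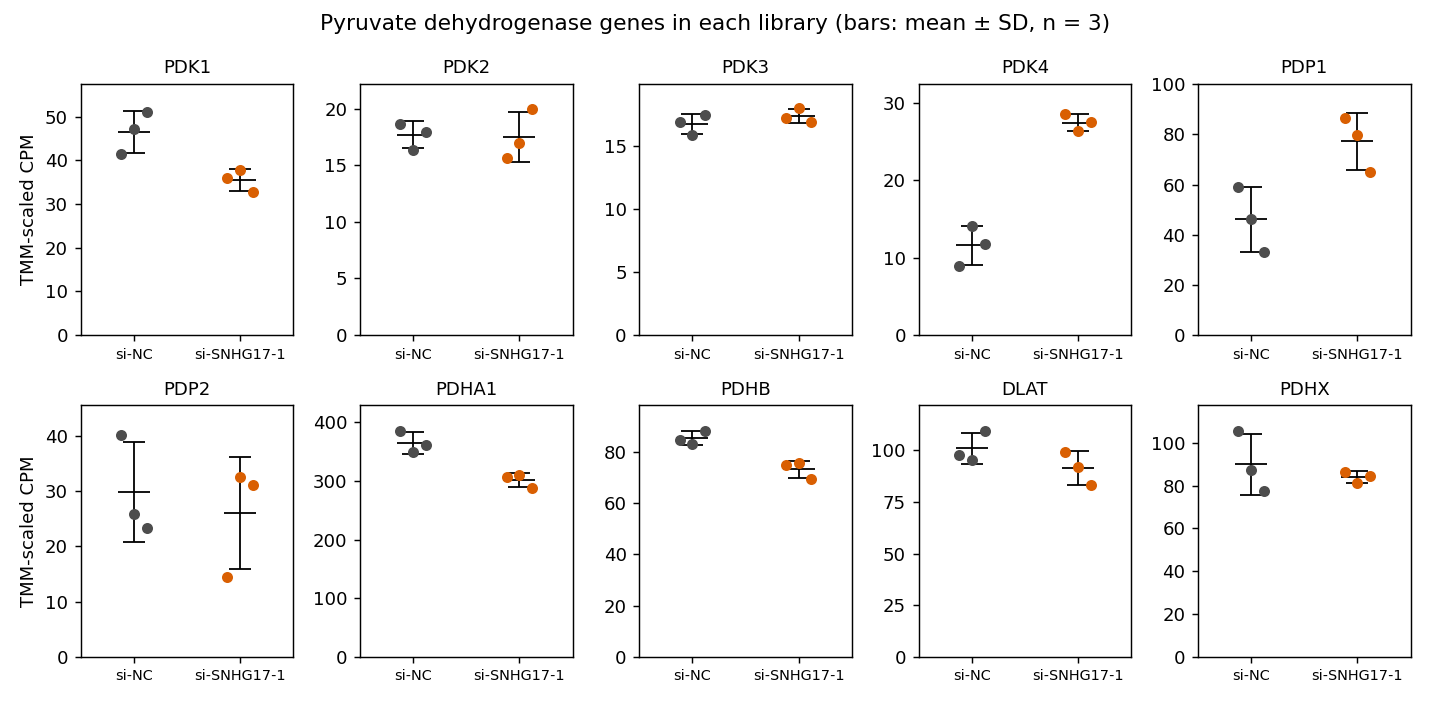
Level of each of the 10 genes in every library, in TMM-scaled CPM on axes that start at 0; points are libraries, and the bars give mean ± SD (n = 3). The 3 si-SNHG17-1 libraries of PDK4 lie between 26.3 and 28.5 CPM, above all si-NC libraries, while PDK2, PDK3, PDP2, DLAT and PDHX overlap between groups.

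PDK4 encodes the kinase that fasting, glucocorticoids and fatty acids induce in liver and muscle. With si-NC, replicates 1, 2 and 3 had 337, 587 and 466 counts of it, and with si-SNHG17-1 they had 1090, 1109 and 846. In CPM these were 8.94, 14.1 and 11.7 against 28.5, 26.3 and 27.5. Every si-SNHG17-1 library stood above every si-NC library, and the si-NC libraries were the more widely spread. On the log2 scale PDK4 rose by 1.24 ± 0.18 (SE), or 2.37-fold (edgeR adjusted p = 0.00723). The call held in each of 6 fits with a library left out (log2 fold change 1.09 to 1.41, edgeR adjusted p 0.0112 to 0.0418) and under each of 7 other settings. PDK4 (ENSG00000004799.7) lies on the minus strand of chromosome 7 from 95583499 to 95596491 of GRCh38. In GENCODE release 29 no other gene shares exon bases with it, and none of its 4513 words of 50 bases occurs in a transcript of another gene.

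PDK1 (ENSG00000152256.13, chromosome 2, 172555373 to 172608669 on the plus strand) is the isoform known as a target of hypoxia-inducible factor. It had levels of 41.3, 47.2 and 51.0 CPM with si-NC against 36.0, 37.7 and 32.7 CPM with si-SNHG17-1. The groups did not overlap and PDK1 went the opposite way to PDK4, but the difference did not pass the test (log2 fold change −0.39 ± 0.12 SE, edgeR adjusted p = 0.0734). DESeq2 called it (adjusted p = 0.0418). An antisense gene, AC078883.1, shares 445 exon bases with PDK1 and had 148, 159 and 194 counts with si-NC against 102, 141 and 80 with si-SNHG17-1 (−0.55, edgeR adjusted p = 0.143).

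PDK2 (ENSG00000005882.11, chromosome 17, 50094737 to 50112152 on the plus strand) is the most widely expressed isoform across tissues. It stood at 18.7, 16.4 and 17.98 CPM with si-NC against 15.6, 16.9 and 19.96 CPM with si-SNHG17-1. The groups overlapped, with a log2 fold change of −0.01 ± 0.14 SE (edgeR adjusted p = 0.967) that became 0.03 when libraries were scaled by total counts. PDK2 shares 2113 exon bases, 38.6% of its own, with SAMD14 on the opposite strand, the largest such overlap among the kinases, and without a known strand setting their reads cannot be told apart. SAMD14 itself had 291, 310 and 325 counts with si-NC against 10, 336 and 204 with si-SNHG17-1.

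PDK3 (ENSG00000067992.12, chromosome X, 24465221 to 24539837 on the plus strand) was the steadiest of the kinases in CPM within groups. It stood at 17.0, 15.9 and 17.5 CPM with si-NC against 17.3, 18.1 and 16.9 CPM with si-SNHG17-1 (0.06 ± 0.12 SE on the log2 scale, edgeR adjusted p = 0.812). A missed threshold does not show that PDK2 and PDK3 were unaltered.

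The kinases were compared with each other per length, as CPM per kb of merged exons. In si-NC their order was PDK3 (3.39 ± 0.165), PDK2 (3.22 ± 0.218), PDK1 (3.13 ± 0.326) and PDK4 (2.56 ± 0.567; SD, n = 3), and each overlapped its neighbour in range. In si-SNHG17-1 PDK4 came first at 6.08 ± 0.244, above the highest PDK3 library, while PDK3 (3.52 ± 0.117) and PDK2 (3.20 ± 0.403) overlapped, and PDK1 was last at 2.38 ± 0.170. PDK4 accounted for 17.1%, 24.9% and 20.3% of the summed kinase level per kb in the si-NC libraries and for 41.9%, 38.6% and 39.7% in the si-SNHG17-1 libraries. The summed level of the 4 kinases was 12.3 ± 0.641 and 15.2 ± 0.154 CPM per kb. Without length, the sums were 92.5 ± 6.19 and 97.9 ± 1.01 CPM, because PDK1, with 14883 merged exon bases, then weighs most. In mean CPM with si-SNHG17-1, PDK1 (35.5) stood above PDK4 (27.5). The order per kb also depends on the length used. The longest coding transcript of PDK3 has 1921 bases against 4951 merged exon bases, and that of PDK4 3576 against 4519. Divided by these coding transcript lengths, the si-SNHG17-1 means of PDK3 (17.4 CPM) and PDK4 (27.5 CPM) would put PDK3 above PDK4. The first place of PDK4 and the size of its share therefore hold for merged exons only.

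**Figure D2:**
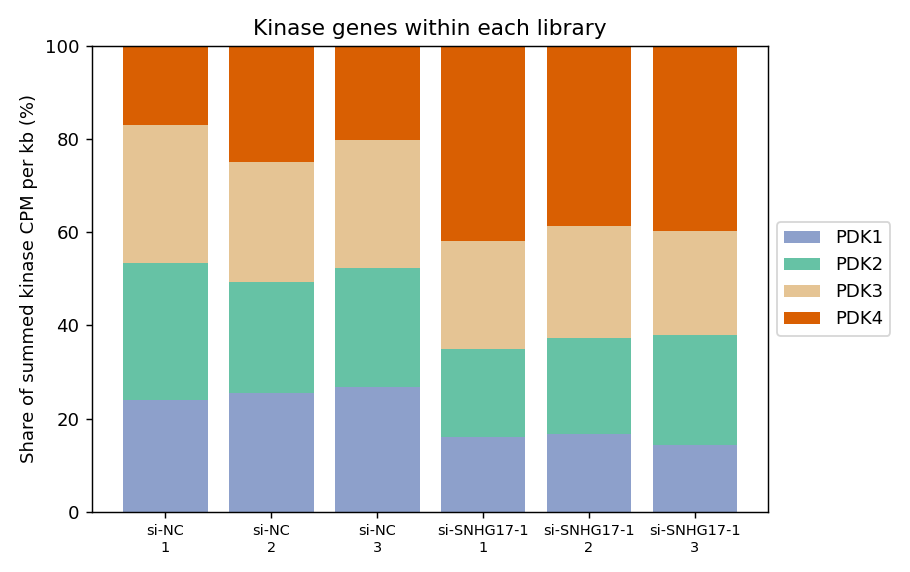
Share of each kinase gene in the summed kinase level (CPM per kb of merged exons, in %), one bar per library. PDK4 takes 17.1% to 24.9% of the bar in si-NC and 38.6% to 41.9% in si-SNHG17-1, and the shares of PDK1, PDK2 and PDK3 are lower there. Shares divide a fixed total, so a rise of PDK4 alone lowers the others. From si-NC to si-SNHG17-1, mean CPM per kb went from 3.13 to 2.38 for PDK1, 3.22 to 3.20 for PDK2 and 3.39 to 3.52 for PDK3.

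PDP1 (ENSG00000164951.15) encodes the calcium-activated phosphatase that reactivates the complex. Its levels were 58.8, 46.3 and 33.2 CPM with si-NC against 86.7, 79.9 and 64.9 CPM with si-SNHG17-1. All si-SNHG17-1 libraries were above all si-NC libraries, but the spread within si-NC was 12.8 CPM (SD) around a mean of 46.1. The log2 fold change of 0.74 ± 0.21 SE did not pass the edgeR test (adjusted p = 0.0638). It passed with DESeq2 (adjusted p = 0.004), with limma-voom (adjusted p = 0.049) and in edgeR without si-NC replicate 1 (0.96, adjusted p = 0.0303).

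PDP2 (ENSG00000172840.6, chromosome 16, 66878589 to 66895754 on the plus strand) encodes the second phosphatase, which is known to be insulin-responsive. It stood at 40.1, 25.9 and 23.4 CPM with si-NC against 14.5, 32.6 and 31.1 CPM with si-SNHG17-1. The highest library was si-NC replicate 1 and the lowest si-SNHG17-1 replicate 1, and the other 4 lay between 23.4 and 32.6 CPM in mixed order. The log2 fold change of −0.19 ± 0.33 SE (edgeR adjusted p = 0.765) became positive without si-SNHG17-1 replicate 1 (0.11) or without si-NC replicate 1 (0.08). The ratio of summed kinase CPM to summed phosphatase CPM was 0.869, 1.30 and 1.74 with si-NC against 0.963, 0.880 and 1.01 with si-SNHG17-1. The 3 si-SNHG17-1 ratios lay inside the si-NC range.

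PDHA1 encodes the E1 alpha subunit, which carries the phosphorylation sites of the kinases, and was the most abundant of the 10 genes. It stood at 385.3, 349.3 and 361.0 CPM with si-NC against 307.2, 310.9 and 289.0 CPM with si-SNHG17-1. All si-SNHG17-1 libraries were lower, from a mean of 365.2 ± 18.4 to 302.4 ± 11.7 CPM (SD, n = 3 each). The log2 fold change was −0.27 ± 0.07 SE (edgeR adjusted p = 0.0448). Leaving out any 1 of the 6 libraries lost this call, at edgeR adjusted p of 0.0656 (without si-NC replicate 2) to 0.143 (without si-SNHG17-1 replicate 3), with total counts (0.0688) and with no filter (0.0925). The sign was negative in each of these fits. PDHA1 (ENSG00000131828.13) lies on the plus strand of chromosome X from 19343893 to 19361705 and shares 956 exon bases with MAP3K15 on the opposite strand, whose own log2 fold change was −0.09 (edgeR adjusted p = 0.700).

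PDHB (ENSG00000168291.12, chromosome 3, 58427630 to 58433857 on the minus strand) encodes E1 beta, the partner of E1 alpha. It stood at 84.5, 83.2 and 88.3 CPM with si-NC against 74.9, 75.6 and 69.5 CPM with si-SNHG17-1. The groups did not overlap, and the log2 fold change of −0.22 ± 0.08 SE did not pass the test (edgeR adjusted p = 0.120). DLAT (ENSG00000150768.15, chromosome 11, 112024814 to 112064390 on the plus strand) encodes the E2 acetyltransferase core. It stood at 97.9, 95.5 and 109 CPM with si-NC and at 99.4, 91.9 and 83.2 CPM (−0.14 ± 0.10 SE, edgeR adjusted p = 0.407). PDHX (ENSG00000110435.11, chromosome 11, 34915829 to 35020591 on the plus strand) encodes the protein that binds E3 to the core. It stood at 105, 87.1 and 77.3 CPM with si-NC and at 86.5, 81.1 and 84.3 CPM (−0.10 ± 0.12 SE, edgeR adjusted p = 0.662). DLAT and PDHX overlapped between groups, and the 4 subunits named here all had a negative log2 fold change. Without si-NC replicate 1, its highest library, PDHX turned to 0.03.

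Per kb of merged exons in si-NC, PDHA1 led at 81.3 ± 4.09 CPM per kb, followed by PDHX (23.9 ± 3.78) and DLAT (20.9 ± 1.54), which overlapped in range. PDHB (18.1 ± 0.568) and PDP1 (8.23 ± 2.29) came next, each apart from its neighbours. PDP2 at 3.56 ± 1.08 overlapped PDK3, the highest kinase. PDK4 stood at 3.18% ± 0.849 of the PDHA1 level per kb in si-NC and at 9.04% ± 0.554 in si-SNHG17-1 (SD, n = 3 each). The order depends on the length used: with the longest coding transcript, PDHB, for which this is 1527 bases against 4717 merged exon bases, moved from rank 4 to rank 2. No word of 50 bases was shared between transcripts of any of the 10 genes.

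**Figure D3:**
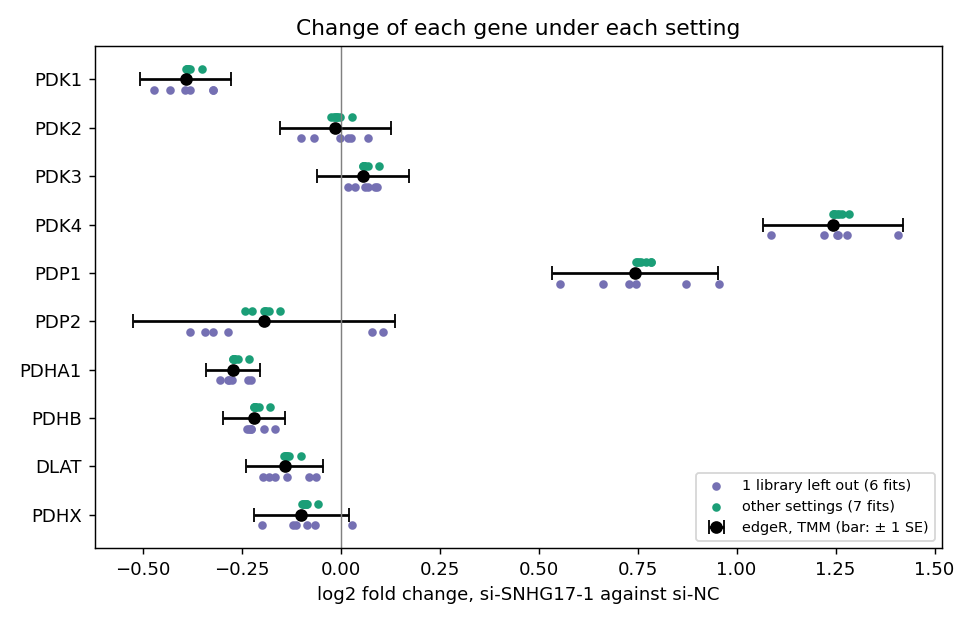
Log2 fold change of each gene (si-SNHG17-1 against si-NC) from edgeR with its standard error, with the 6 fits that leave out a library and the 7 other settings beside it. PDK4 stays between 1.09 and 1.41 when a library is left out, PDP1 between 0.55 and 0.96 and PDHA1 between −0.30 and −0.23, while PDK2, PDP2 and PDHX fall on both sides of 0.

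The promoters of the 2 called genes are shown because these genes moved in opposite directions, although counts do not measure promoter activity. RefSeq windows from 250 bases before to 50 bases after the start (GRCh38.p14) are described for 9 of the 10 genes, all except PDP1. PDK4 is chr7:95596467-95596766 on the minus strand and PDHA1 is chrX:19343677-19343976 on the plus strand. Each line runs 5′ to 3′, and capitals mark CCAAT boxes (CCAAT) and GC boxes (GGGCGG) on either strand.
PDK4: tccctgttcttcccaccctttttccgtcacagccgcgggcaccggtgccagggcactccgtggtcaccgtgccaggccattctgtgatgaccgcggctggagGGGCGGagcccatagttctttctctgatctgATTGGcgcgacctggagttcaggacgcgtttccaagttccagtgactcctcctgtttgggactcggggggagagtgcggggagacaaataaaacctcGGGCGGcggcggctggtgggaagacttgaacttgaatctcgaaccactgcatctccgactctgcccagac
PDHA1: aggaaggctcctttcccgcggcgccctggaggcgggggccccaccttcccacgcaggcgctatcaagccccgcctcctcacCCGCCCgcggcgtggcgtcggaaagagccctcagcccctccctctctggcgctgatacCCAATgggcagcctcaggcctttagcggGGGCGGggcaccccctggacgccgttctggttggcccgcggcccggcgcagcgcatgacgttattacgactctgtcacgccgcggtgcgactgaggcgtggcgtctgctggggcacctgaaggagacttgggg

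Both windows held a CCAAT box, found in 34.6% of 35116 windows of this length, and a GC box, found in 44.95%. Neither box was particular to these 2 genes. Of the 13 windows described, from 9 genes, 8 held a CCAAT box and 10 a GC box. Counted by gene, the same 8 genes held each box, all except DLAT. None of the 13 windows of the group held the forkhead word TGTTTAC, which 3.42% of all windows held on either strand. A word this rare would often be missing from 13 windows, and sites outside the windows were not searched, so nothing is read from its absence. The nuclear receptor half-site AGGTCA (13.8% of windows) was present in DLAT and the E box CACGTG (7.26%) in PDHB, PDK2 and PDP2. The hypoxia core ACGTG, which lies within the E box, was found in 21.4% of all windows. It was in 7 of the 13 windows of the group, each of a different gene, PDK1 among them, but in neither sequence above. The PDK4 window held 21 CG pairs and was 60.7% G or C, against 31 and 71.0% for PDHA1 and medians of 14 and 58.7% over all windows. A match is a description of letters and not of a bound site.

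The longest annotated 3′ UTR of each gene was searched for TCAATC, a word that an earlier analysis of these data had searched for and that 18.6% of 19145 genes hold. Of the 10 genes only PDK1 held it, in a 3′ UTR of 12700 bases, at 2 places counted from the first base after the stop codon (1221 and 5651). The sites are shown in 30 bases each, with the word in capitals and, in the first, extended to TTCAATC, which 7.36% of genes hold.
PDK1 site at 1221: ctcactgcagcTTCAATCttctgggctcaa
PDK1 site at 5651: cggaactgtgagTCAATCctttttattata
PDHA1 and the other 8 genes did not hold it, and neither did DLD. Among the 10 genes, the 3′ UTRs without the word were shorter, from 445 bases (PDHB) to 5222 bases (PDP2). The shares over all genes were not matched for length, so nothing is read from the word being in PDK1 only. Whether these sites bear on the level of PDK1 was not tested.

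Genes around the complex were described from 12 lists with 135 genes, drawn up with earlier results known, of which 121 could be tested. In all, edgeR called 9 higher and 14 lower, or 19.0%, beside 10.5% of all genes. The median log2 fold change of the 121 was −0.06. These counts went down to 4 rises and 4 falls without si-SNHG17-1 replicate 1, to 6 and 5 without replicate 2 and to 5 and 6 without replicate 3. Without si-NC replicates 1, 2 and 3, 9 genes rose in each fit and 9, 9 and 6 fell. Of the 23 called genes, 7 kept the call in all 6 of these fits. For each list below, counts at an unadjusted p under 0.05 are also given. The share of all genes that pass this unadjusted cut was not counted, so nothing is read from those counts.

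DLD, the E3 dehydrogenase shared by the pyruvate and sister complexes, fell, as the only one of its list to be called. Its levels were 107, 87.8 and 86.4 CPM with si-NC against 58.7, 54.5 and 65.7 CPM with si-SNHG17-1. The groups were well apart, with a log2 fold change of −0.65 ± 0.12 SE (edgeR adjusted p = 0.0157), larger in size than that of any subunit above. The call was lost without si-SNHG17-1 replicate 1 (adjusted p = 0.0667) or 2 (0.0592). PDPR, the regulatory subunit of the phosphatase, went from 81.8 ± 7.45 to 66.2 ± 12.9 CPM without a call (−0.31, edgeR adjusted p = 0.244). PDHA2, the testis form of E1 alpha, was too low to test.

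The mitochondrial pyruvate carrier was not called. MPC1 went from 12.6 ± 1.81 to 9.24 ± 1.19 CPM (−0.45 on the log2 scale, edgeR adjusted p = 0.143) and MPC2 from 75.05 ± 3.85 to 71.6 ± 5.07 CPM (−0.07, edgeR adjusted p = 0.686). Of 6 genes tested for pyruvate and lactate transport, edgeR called 1 lower and 0 higher (3 and 0 at an unadjusted p under 0.05; 1 and 0 with DESeq2 and with limma-voom), around a median of −0.21. This was SLC16A3, the lactate exporter MCT4, at 426 ± 36.6 and 335 ± 14.9 CPM (−0.35, edgeR adjusted p = 0.0363), whose call survived just 1 omission, that of si-NC replicate 2 (adjusted p up to 0.134, when si-SNHG17-1 replicate 1 was omitted).

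Enzymes that make or use pyruvate elsewhere included 3 called lower and 0 higher by edgeR among 10 tested (5 and 1 at an unadjusted p under 0.05; 4 and 1 with DESeq2, 3 and 0 with limma-voom). Their median log2 fold change was −0.28. LDHB, a lactate dehydrogenase subunit, fell from 861 ± 79.2 to 610 ± 13.8 CPM (−0.50 ± 0.07 SE, edgeR adjusted p = 0.00873), and the call held with any library left out. LDHA, the other subunit, stood at 1429, 1319 and 1462 CPM with si-NC against 708, 717 and 1115 CPM with si-SNHG17-1 (−0.73 ± 0.17 SE, edgeR adjusted p = 0.0369). Its si-SNHG17-1 replicate 3 stood apart from the others of the group, and the call held only without that library (adjusted p = 0.00452) and was lost without any other (up to 0.118, without si-SNHG17-1 replicate 1). ME2, a mitochondrial malic enzyme, fell by 0.44 on the log2 scale (edgeR adjusted p = 0.0263) and stayed called just when si-NC replicate 1 was omitted (adjusted p up to 0.105, on omitting si-SNHG17-1 replicate 2).

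Of 9 genes of the sister 2-oxoacid dehydrogenases, which share DLD and the cofactor lipoate, edgeR called 1 lower and 0 higher (4 and 0 at an unadjusted p under 0.05; 3 and 0 with DESeq2, 1 and 0 with limma-voom), around a median of −0.18. OGDH, the E1 of the 2-oxoglutarate complex, fell from 585 ± 6.86 to 413 ± 9.39 CPM (−0.50 ± 0.05 SE, edgeR adjusted p = 0.00306), and with any library left out (adjusted p up to 0.0298). BCKDK, the kinase of the branched-chain complex and a relative of the PDKs, was not called (0.15, edgeR adjusted p = 0.680). Of 10 lipoate and thiamine genes, edgeR called 1 lower and 0 higher (3 and 1 at an unadjusted p under 0.05; 2 and 1 with DESeq2, 1 and 0 with limma-voom), and the list median was −0.09.

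In the TCA cycle, edgeR called 4 of 15 genes lower and 1 higher (5 and 2 at an unadjusted p under 0.05 and with DESeq2, 4 and 1 with limma-voom), and the median change was −0.06 (log2). SUCLG1, a succinyl-CoA ligase subunit, fell from 146 ± 7.10 to 105 ± 2.71 CPM (−0.47 ± 0.07 SE, edgeR adjusted p = 0.00965) and kept the call with any library left out. FH, fumarate hydratase, fell by 0.41 (edgeR adjusted p = 0.012), a call lost without si-SNHG17-1 replicate 2 (adjusted p = 0.0571) or 3 (0.054). MDH2 and IDH3B, a malate and an isocitrate dehydrogenase, fell by 0.33 and 0.35 (edgeR adjusted p = 0.022 and 0.0328). Among the fits with a library left out, MDH2 kept its call only without si-NC replicate 1 and IDH3B in none (adjusted p up to 0.0994 and 0.135, each without si-SNHG17-1 replicate 1). CS, citrate synthase, which takes up the acetyl-CoA made by the complex, was not called (0.07, edgeR adjusted p = 0.762).

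Of SIRT3, SIRT4, SIRT5 and ACAT1, edgeR called 1 higher and 1 lower (2 and 1 at an unadjusted p under 0.05; 1 and 1 with DESeq2 and with limma-voom), around a median of 0.03 (log2). SIRT5, a desuccinylase, rose from 17.6 ± 1.66 to 30.6 ± 1.54 CPM (0.80 ± 0.12 SE on the log2 scale, edgeR adjusted p = 0.00879) and kept the call with any library left out (adjusted p up to 0.0499). SIRT4, described as a lipoamidase acting on the complex, fell by 1.38 from a low level of 3.31 ± 0.184 CPM (edgeR adjusted p = 0.0316), a call kept only without si-SNHG17-1 replicate 3 (adjusted p up to 0.100, on leaving out si-SNHG17-1 replicate 2). SIRT3 and ACAT1 were not called (−0.22 and 0.28, edgeR adjusted p = 0.506 and 0.0562).

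Of 18 transcription factors and coactivators known to act on kinase genes, edgeR called 3 higher and 0 lower (3 and 2 at an unadjusted p under 0.05; 3 and 1 with DESeq2, 3 and 0 with limma-voom), around a median of 0.04 (log2). PPARG rose from 31.1 ± 1.91 to 60.6 ± 3.91 CPM (0.96 ± 0.10 SE, edgeR adjusted p = 0.00263), with any library left out as well (adjusted p up to 0.0188). EPAS1 and ARNT, which encode hypoxia-inducible factor 2 alpha and its partner, rose by 0.58 and 0.48 (edgeR adjusted p = 0.0125 and 0.013). Both calls were lost without si-SNHG17-1 replicate 1 (adjusted p = 0.0586 for each) and that of ARNT without replicate 3 (0.0544). PPARA, PPARD, FOXO1, FOXO3 and NR3C1, the glucocorticoid receptor, were not called.

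Of 9 PPAR targets tested, ANGPTL4, an inhibitor of lipoprotein lipase, fell from 42.5 ± 4.84 to 25.3 ± 2.06 CPM and was the single call, with 0 higher (3 lower and 0 higher at an unadjusted p under 0.05; 1 and 0 with DESeq2 and with limma-voom). The list median was −0.21. Its log2 fold change of −0.75 ± 0.13 SE (edgeR adjusted p = 0.0128) lost the call without si-SNHG17-1 replicate 1 (adjusted p = 0.0731) or 3 (0.0645). CPT1A, which imports fatty acids into mitochondria and was picked after its value was seen, was not called (−0.13, edgeR adjusted p = 0.339).

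Of 15 FOXO targets, edgeR called 3 higher and 1 lower (8 and 3 at an unadjusted p under 0.05; 4 and 1 with DESeq2, 2 and 1 with limma-voom), around a median of 0.18 (log2). TXNIP, an arrestin that limits glucose uptake, stood at 153, 181 and 137 CPM with si-NC against 347, 372 and 346 CPM with si-SNHG17-1. It rose like PDK4 in all 3 libraries (1.17 ± 0.11 SE, edgeR adjusted p = 0.00185) and kept the call with any library left out (adjusted p up to 0.0146). SOD2 rose by 0.52 and CAT fell by 0.42, both antioxidant enzymes (edgeR adjusted p = 0.0206 and 0.0216). SOD2 lost its call without any of the si-SNHG17-1 replicates (adjusted p up to 0.0844), as did CAT, also without si-NC replicate 3 (up to 0.0885), both highest without si-SNHG17-1 replicate 3. IGFBP1 rose by 1.32 from 0.987 ± 0.103 CPM and lost its call with any library left out (adjusted p up to 0.155, on leaving out si-SNHG17-1 replicate 1).

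Of 8 glucocorticoid receptor targets, DUSP1, a phosphatase of MAP kinases, rose by 0.62 (edgeR adjusted p = 0.00516; up to 0.0358 with a library left out), and 0 were lower (3 higher and 1 lower at an unadjusted p under 0.05; 1 and 0 with DESeq2 and with limma-voom). The list median was 0.14. Of the 8, 6 had a log2 fold change above 0 and 2 below. FKBP5 and TSC22D3, picked after their values were seen, were not called (0.31 and −0.16). Of 15 HIF targets edgeR called 0 (2 higher and 3 lower at an unadjusted p under 0.05; 1 and 2 with DESeq2, 0 with limma-voom), around a median of 0.03. The most abundant of them, BHLHE40, went from 336 ± 29.8 to 404 ± 11.1 CPM (0.27, edgeR adjusted p = 0.0731). The count of 0 covers these 15 genes only. PDK1, described above as a target of hypoxia-inducible factor (−0.39, edgeR adjusted p = 0.0734), was not on this list. LDHA, SLC16A3 and ANGPTL4, each called lower, were counted in other lists.

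**Figure D4:**
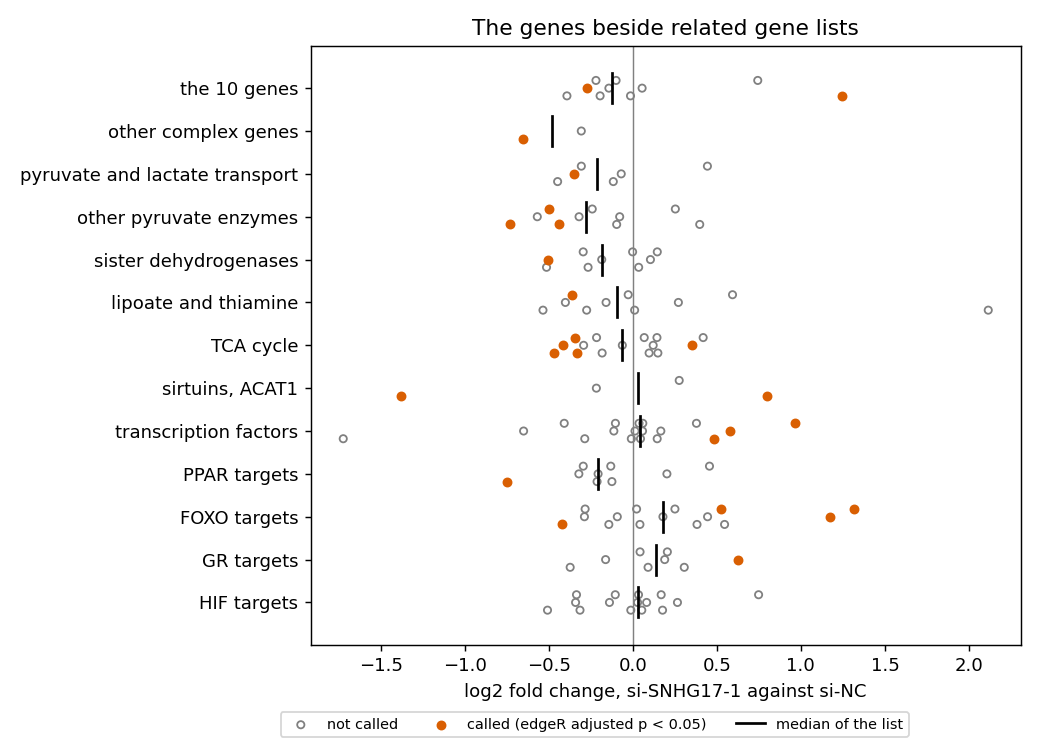
Log2 fold change (si-SNHG17-1 against si-NC) of the 10 genes and of the tested genes of 12 related lists; filled points were called by edgeR, and the black line is the median of each list. Called genes of the lists around pyruvate and the TCA cycle lie below 0 except 1 in the TCA cycle, and those among transcription factors lie above 0.

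The 3 genes whose log2 CPM ran closest to that of PDK4 over the 6 libraries, among 12782 other genes of at least 2 CPM, were UBQLN2, STX12 and TMEM117 (Pearson r of 0.999, 0.999 and 0.998). They were picked as the highest of many over 6 libraries that form 2 groups, and the values are a description. STX12, an endosomal syntaxin, stood at 12.1, 19.1 and 15.7 CPM with si-NC against 44.8, 40.4 and 40.9 CPM with si-SNHG17-1. As for PDK4, si-NC replicate 1 was the lowest library and si-SNHG17-1 replicate 1 the highest, and the log2 fold change was 1.43 (edgeR adjusted p = 0.00429). UBQLN2, a ubiquilin, followed the order of PDK4 in both groups with a smaller log2 fold change (0.35, edgeR adjusted p = 0.0307), and its call held just when si-NC replicate 2 was omitted (adjusted p up to 0.122, on leaving out si-SNHG17-1 replicate 1). TMEM117, a membrane protein, had a log2 fold change of 0.85 (edgeR adjusted p = 0.0214), and its call held just when si-NC replicate 1 or 2 was omitted (adjusted p up to 0.0838, on leaving out si-SNHG17-1 replicate 1).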

How the data were processed

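RNA of 6 libraries (si-NC and si-SNHG17-1, 3 each, grouped by title) was sequenced. The authors deposited a table of raw counts, 1 value for each gene and library, without normalisation. HISAT2 and GRCh38 are named in the submitters' processing notes, while for the counting program, annotation and strand setting nothing was found (not given in the sources used here). Members and lists were chosen with earlier results of these data known.

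Genes were kept by filterByExpr (minimum count 10, minimum total 15), scaled with TMM and tested with edgeR 4.0.16 (R 4.3.3) by the quasi-likelihood F test, with Benjamini-Hochberg adjustment over 18679 genes and no covariate. A call is an adjusted p under 0.05. The SE of a log2 fold change is its size over √F. Marker sums used CPM of total counts. Floors of 3 counts were 0.0710 to 0.0993 CPM and cover counting error only. Exon lengths, overlaps and 3′ UTRs came from GENCODE release 29, matched by identifier without version. SDHD had 2 entries, and the one with more counts was used.

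Named were all 10 genes, SNHG17, overlapping genes, DLD, PDPR, MPC1 and MPC2, up to 4 called genes per list and direction or else its most abundant gene, and the 3 genes most like PDK4. Some genes that this rule names are not reported here, though list counts include them. Other uncalled genes (PDHA2, BCKDK, CS, SIRT3, ACAT1, PPARA, PPARD, FOXO1, FOXO3, NR3C1, CPT1A, FKBP5, TSC22D3) were picked after their values were seen. Alternatives were median-of-ratios and total-count scaling, no filter or a filter of 1 CPM in 3 libraries, DESeq2 1.42.0, limma-voom (limma 3.58.1), a replicate block and leaving out each library. Replicates differed by more than counting error (χ² over its degrees of freedom from 26.5 to 55.2).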

Additional observations from a re-analysis of the deposited data

How the results depend on the processing

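PDK4 was called under every setting tried, with log2 fold changes of 1.09 to 1.41 with a library left out. The genes called higher and lower over the whole table numbered 980 and 974, and 1424 and 1395 with DESeq2. With no filter 670 were higher and 627 lower, and with a library left out 313 to 694 and 264 to 705. Of the 10 genes, 2 were higher with DESeq2, limma-voom and without si-NC replicate 1 (1 to 2 with a library left out), where PDP1 joined PDK4 (log2 fold changes of 0.75, 0.78 and 0.96; 0.55 to 0.96 with a library left out). None was lower with total counts or no filter, where PDHA1 had −0.23 and −0.27, nor with any library left out (0 to 0 genes; PDHA1 −0.30 to −0.23). With DESeq2 2 were lower, PDK1 (−0.39) joining PDHA1. PDK2 turned positive with total counts (0.0279) and ranged from −0.101 to 0.0700 with a library left out, PDP2 from −0.381 to 0.107 and PDHX from −0.20 to 0.0288. Among the further lists DESeq2 called 14 higher and 22 lower and no filter left 9 lower; with a library left out 4 to 9 were higher and 4 to 9 lower. By level in si-NC, 4 of the 10 genes kept their rank in CPM without length, and 4 per kb of the longest coding transcript, a choice made after seeing the data.

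The labels do not say whether the replicate numbers pair the libraries. Deviations of same-numbered libraries had correlations of −0.03, −0.05 and −0.05, and no library correlated best with its own number. All correlations between groups lay from −0.0534 to 0.0504. They show no shift shared over all genes by number, but cannot tell whether libraries were prepared in pairs. With the number as a replicate block, 273 genes were higher and 259 lower, and 4 and 4 of the further lists. In this paired fit 2 of the 10 genes were higher, PDK4 and PDP1 (0.77, adjusted p = 0.0424), and 0 lower (PDHA1 −0.27, adjusted p = 0.132). Low transcripts such as PDK4, at 337 counts in its lowest library, carry more counting error than PDHA1, at 8876 or more.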
